A study of Sus scrofa with 12 samples.

Results

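The pregnancy effect was examined in the endometrium of Landrace (LL) sows. The comparison set 3 pregnant sows, numbered 6, 8 and 10, against 3 non-pregnant sows, numbered 5, 7 and 9. These were 6 of the 12 sows of the study, chosen by their genotype label. The other 6 were Yorkshire sows and are used here for the estimate of spread and for context. All sows were sampled on Day 14 after insemination. The pregnant sows carried conceptuses, and the non-pregnant sows had received inactivated semen. After the uterine horns had been flushed, endometrium was taken from 3 sections of each horn, without the outer muscle coat. Each sow gave 1 Affymetrix porcine array, so a replicate is an animal. The values are log2 expression values, on which a difference of 1 is a 2-fold change. Of 24123 probe sets, the 23999 that were not manufacturer controls were tested.

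In the pig, elongating conceptuses secrete oestrogen and interferons around the time they begin to attach to the luminal epithelium. The endometrium of pregnancy supplies the conceptuses with secreted proteins and nutrients, known together as histotroph. In the absence of conceptuses the endometrium releases prostaglandin F2 alpha towards the ovary and the corpora lutea regress. The tissue measured here is a mixture of luminal and glandular epithelium, stroma, vessels and immune cells. In such tissue, fewer cells of one type and less RNA per cell cannot be told apart.

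The epithelial and stromal identity of the samples was visible in the marker lists. The mean log2 value of 15 measured markers of luminal and glandular epithelium lay between 9.33 and 9.82 in all 6 Landrace sows, and that of 12 stromal fibroblast markers between 8.77 and 9.59. None of these 27 markers lay below the lower quartile of the array in all 6 sows.

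Sow 7 stood apart from the other non-pregnant sows. Its highest correlation with another array was 0.975, against 0.983 to 0.992 for the other 5 Landrace arrays. Among 6765 named genes, 84 were more than 2 log2 units higher in sow 7 than in both sows 5 and 9, and 7 were more than 2 lower. Of the 84 genes, 75 were also higher in sow 7 than in all of the other 11 sows. They included, chosen after their values were seen, the B cell chemokine CXCL13, at 12.59 in sow 7 and 5.90 and 5.79 in sows 5 and 9. The neutrophil chemokine CXCL8 stood at 8.64 in sow 7 and at 3.09 and 2.95 in sows 5 and 9. The mean of 13 macrophage and monocyte markers was 8.62 in sow 7, 6.69 and 6.76 in sows 5 and 9, and 6.89 to 7.37 in the pregnant sows. That of 12 T cell markers was 6.22 in sow 7 and 5.17 to 5.64 in the other 5 sows.

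Sow 8 lay between the groups. The array most like that of pregnant sow 8 was that of non-pregnant sow 5 (correlation 0.983). On the first principal component of the 6 Landrace arrays, sows 5 and 9 lay at -29.2 and -35.9 and sows 6 and 10 at 36.7 and 32.5. Sow 8 lay at 2.44 and sow 7 at -6.47. Among the Yorkshire sows, the array of pregnant sow 12 was most like that of non-pregnant sow 11 (correlation 0.992). The 3′ minus 5′ signal of the GAPDH control, which rises as RNA is shortened, was 0.869 to 1.04 in non-pregnant and 1.15 to 1.25 in pregnant Landrace sows. For a second GAPDH control pair the ranges were 0.196 to 0.270 and 0.0916 to 0.367, which overlap. For the actin control they were -1.69 to -1.61 and -1.59 to -1.42. The part of these signals in the results was not tested.

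**Figure D1:**
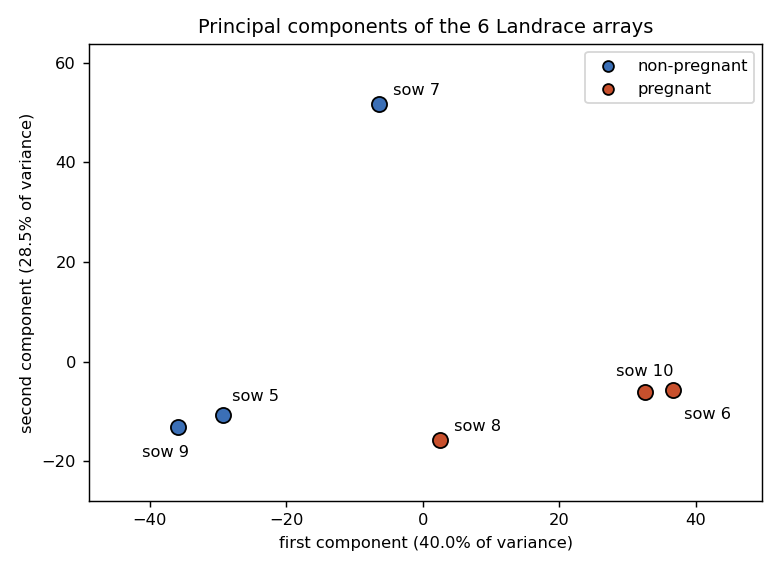
Positions of the 6 Landrace arrays on the first and second principal components of the log2 expression values (horizontal and vertical axis, with the share of variance of each), 1 point per sow, coloured by group. Sows 5 and 9 lie at the left and sows 6 and 10 at the right, sow 8 lies near 0 on the first component, and sow 7 lies alone at 51.6 on the second.

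Between pregnant and non-pregnant Landrace sows, 247 probe sets passed the threshold of an adjusted p under 0.05 in limma. Of these, 132 (0.55% of those tested) were higher and 115 (0.479%) lower in pregnant sows. A gene was represented by its probe set with the highest mean, which gave 6765 genes. Of these, 55 (0.813%) rose and 56 (0.828%) fell, and 45 of the probe sets that rose and 49 of those that fell changed at least 2-fold. For all 111 genes the values of the 2 groups did not overlap. Over all genes, 11.1% had no overlap with the pregnant sows higher, and 15.2% with the pregnant sows lower. With 3 sows against 3, an exact two-sided permutation test of 1 gene cannot give a p below 0.1, so the calls rest on the spread pooled over the 12 arrays by limma. Over all genes the median log2 difference was -0.02.

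The number of calls depended on single sows. The called probe sets numbered 47, 31, 17 and 13 without sows 5, 6, 9 and 10, and 555 and 560 without sows 8 and 12. Leaving out Yorkshire sow 1 gave 146 calls. Of the 111 genes, 15, 7, 6 and 3 were still called without sows 5, 6, 9 and 10, and 68 and 91 without sows 7 and 8. All 111 kept their direction in each of these fits. The genes still called whichever sow was left out were PDK4 among the rises and BCAT1 and SQLE among the falls. In 64 of the 111 genes sow 8 was the pregnant sow nearest to the non-pregnant sows, and in 51 sow 7 was the non-pregnant sow nearest to the pregnant sows. In every gene 1 of the 3 sows of a group is nearest. Among all 163 genes that differed at least 2-fold, called or not, the counts were 103 for sow 8 and 93 for sow 7.

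Among called genes with a symbol, the largest fall was that of BCAT1, which transfers the amino group of branched-chain amino acids in the cytosol. Its log2 values were 9.02, 7.96 and 9.05 in sows 5, 7 and 9 and 5.25, 5.50 and 5.22 in sows 6, 8 and 10. Values for single sows are given in this order from here on. On the log2 scale BCAT1 fell by 3.35 (SE 0.34, adjusted p = 0.00532), which is 10.2-fold, and its other probe set was called in the same direction. Even the lowest non-pregnant sow lay more than 2 log2 units above the highest pregnant sow. FOS, an immediate early transcription factor, stood at 10.46, 11.48 and 9.87 in non-pregnant and at 8.19, 6.97 and 7.95 in pregnant sows. It fell by 2.90 (SE 0.45, adjusted p = 0.0178), with sow 7 highest and sow 8 lowest. ARG2, the mitochondrial arginase, had values of 8.05, 7.64 and 8.03 against 5.07, 6.51 and 5.45. It fell by 2.23 (SE 0.36, adjusted p = 0.0202), with sow 8 nearest to the non-pregnant sows. SDCBP2, a membrane scaffold protein of the syntenin type, fell by 1.95 (adjusted p = 0.0152). MRPS36, named as a protein of the mitochondrial ribosome, stood at 6.92, 6.88 and 6.90 against 4.55, 5.82 and 4.58. The 3 non-pregnant values were almost equal, while sow 8 again lay between them and the other pregnant sows, and the fall was 1.92 (adjusted p = 0.0214).

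The inflammatory cytokine IL1A fell by 1.60 (adjusted p = 0.0195), from 7.65, 7.06 and 7.36 to 5.73, 5.95 and 5.59. Its other probe set was also called as lower. UPK3BL2, a uroplakin-like membrane protein, fell by 1.77 (adjusted p = 0.0468) and the D-lactate dehydrogenase LDHD by 1.60 (adjusted p = 0.0497). The remaining 4 of the 12 largest falls, SQLE, HMGCS1, HSD17B7 and ACAT2, belong to sterol synthesis and are described with it. Of the 12 falls, BCAT1 and SQLE were called in all fits that left out 1 sow. The calls of ARG2, SDCBP2, MRPS36, HMGCS1, HSD17B7, ACAT2 and IL1A ended without sow 5, 6, 9 or 10, with adjusted p up to 0.0902 for MRPS36. That of FOS ended without sow 5, 6 or 10 (adjusted p up to 0.0681). That of UPK3BL2 ended without any 1 sow except 4, 7 and 12 (up to 0.154), and that of LDHD without any 1 sow except 7, 8 and 12 (up to 0.168).

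Among called genes with a symbol, the largest rise was that of EMB, embigin, a membrane glycoprotein that partners monocarboxylate transporters. Its values were 4.12, 5.32 and 4.41 in non-pregnant and 8.25, 8.48 and 8.61 in pregnant sows. On the log2 scale EMB rose by 3.83 (SE 0.71, adjusted p = 0.0354), or 14.2-fold, and the pregnant sows lay close together. The secreted glutathione peroxidase GPX3 stood at 7.55, 7.42 and 7.36 against 10.55, 9.15 and 10.77. It rose by 2.72 (SE 0.42, adjusted p = 0.0178), less in sow 8 than in sows 6 and 10. IGFBP2, a binding protein of the insulin-like growth factors, stood at 6.74, 7.64 and 6.58 against 9.68, 8.88 and 9.31. It rose by 2.30 (SE 0.40, adjusted p = 0.0262). PDK4, the kinase that switches off pyruvate dehydrogenase, had values of 8.72, 8.47 and 8.41 against 10.50, 10.40 and 10.46. It rose by 1.92 (SE 0.18, adjusted p = 0.00532), with a narrow spread in both groups, and its other probe set was called as well. SLC2A1, the glucose transporter GLUT1, stood at 8.81, 9.14 and 8.44 against 11.23, 9.93 and 10.87. It rose by 1.88 (SE 0.34, adjusted p = 0.0315), again least in sow 8.

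The zinc transporter SLC39A2 rose by 1.86 (adjusted p = 0.0247), from 10.21, 9.34 and 10.41 to 11.97, 11.34 and 12.22. The carbonyl reductase CBR2 rose by 1.93 (adjusted p = 0.0434) and the lysosomal transporter SLC46A3 by 1.51 (adjusted p = 0.0453). RAB15, a GTPase of endosomes, rose by 1.33 (adjusted p = 0.0142) and FMO5, a flavin-containing monooxygenase, by 1.32 (adjusted p = 0.0434). The docking protein GAB1, which sits below growth factor receptors, rose by 1.29 (adjusted p = 0.0213), from 8.16, 8.09 and 7.78 to 9.25, 9.21 and 9.44. S100B, a calcium-binding protein, rose by 1.23 (adjusted p = 0.0213), and the 3 pregnant sows lay at 10.04, 10.00 and 10.39. Of the 12 rises, that of PDK4 was called whichever sow was left out. The calls of GPX3, IGFBP2, SLC39A2, RAB15, GAB1 and S100B ended without sow 5, 6, 9 or 10, with adjusted p up to 0.106 for IGFBP2. That of SLC2A1 also ended without sow 1 (adjusted p up to 0.119). EMB was still called without sow 2, 4, 7, 8 or 12 and no other (up to 0.119). SLC46A3 was called without sow 4, 7, 8 or 12 (up to 0.152), CBR2 without sow 4, 8 or 12 (up to 0.155) and FMO5 without sow 8 or 12 (up to 0.144).

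**Figure D2:**
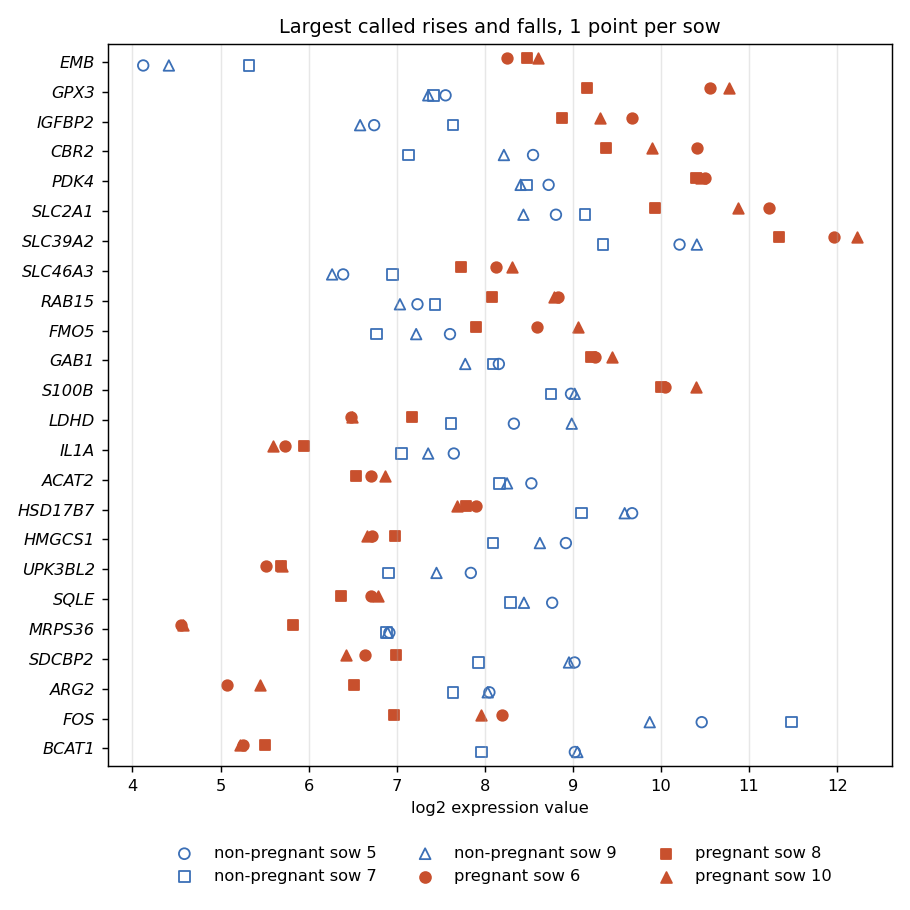
Log2 expression value (horizontal axis) of the 12 largest called rises and 12 largest called falls in the Landrace comparison, ordered by their log2 difference, 1 point per sow, with open symbols for non-pregnant and filled symbols for pregnant sows. The groups do not overlap for any of these genes, and for GPX3, SLC2A1, ARG2 and MRPS36 pregnant sow 8 (filled square) lies nearest to the non-pregnant sows.

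Several genes of sterol synthesis fell. The list of lipid and cholesterol metabolism had 32 measured genes, of which 5 (15.6%) fell, against 0.828% of all genes, and 0 rose. Of the 32, 15 (46.9%) lay lower in every pregnant sow than in every non-pregnant sow, against 15.2% of all genes. The median log2 difference of the list was -0.26. The called members were SQLE, HMGCS1, HSD17B7, MSMO1 and SC5D. HMGCS1, which makes the precursor of mevalonate, stood at 8.92, 8.10 and 8.62 in non-pregnant and at 6.71, 6.98 and 6.66 in pregnant sows, a fall of 1.76 (SE 0.29, adjusted p = 0.0213). SQLE, squalene epoxidase, stood at 8.76, 8.29 and 8.44 against 6.70, 6.36 and 6.79, a fall of 1.88 (SE 0.20, adjusted p = 0.00532). The sterol oxidase MSMO1 fell by 1.46 (adjusted p = 0.0169), from 10.77, 10.16 and 10.56 to 9.23, 8.85 and 9.03, and 1 of its 2 other probe sets had the opposite sign. HSD17B7, a reductase of the late sterol pathway that can also form oestradiol, fell by 1.66 (adjusted p = 0.0181), from 9.67, 9.09 and 9.59 to 7.90, 7.78 and 7.68. SC5D, the sterol desaturase, fell by 0.77 (adjusted p = 0.0355). For HMGCS1, SQLE, MSMO1 and HSD17B7 sow 7 was the lowest non-pregnant sow, and it still lay above every pregnant sow.

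Other enzymes of the pathway were near the threshold and are named after their values were seen. FDPS, which makes farnesyl diphosphate, had values of 11.76, 10.17 and 11.71 against 8.77, 9.77 and 9.37, a log2 difference of -1.91 (adjusted p = 0.0507). The lanosterol demethylase CYP51 differed by -1.20 (adjusted p = 0.0504) and the squalene synthase FDFT1 by -1.09 (adjusted p = 0.0509). The fatty acid synthase FASN differed by -0.99 (adjusted p = 0.0813) and the desaturase SCD by -1.14 (adjusted p = 0.0948). SREBF2, the transcription factor that activates these genes when sterols are low, differed by -0.53 (adjusted p = 0.157), with every pregnant sow below every non-pregnant sow. ACAT2, the thiolase of the first step, was not on the list and fell by 1.61 (adjusted p = 0.0136), from 8.53, 8.17 and 8.25 to 6.71, 6.53 and 6.87. The mitochondrial citrate carrier SLC25A1 fell by 1.43 (adjusted p = 0.0310). The count of 5 falls was 1 without sow 5, 6 or 9, 2 without sow 10 and 9 without sow 12. The calls of HMGCS1, HSD17B7, MSMO1 and ACAT2 ended without sow 5, 6, 9 or 10 and that of SLC25A1 also without sow 1, with adjusted p up to 0.109. That of SC5D held without sow 1, 3, 4 or 12 and no other.

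Genes of prostaglandin synthesis and response moved in both directions. Of 14 measured members, 2 fell and 1 rose, with a median log2 difference of -0.08. PTGS2, the inducible cyclooxygenase, stood at 8.78, 9.39 and 8.49 in non-pregnant and at 7.21, 7.15 and 7.53 in pregnant sows, a fall of 1.59 (SE 0.30, adjusted p = 0.0372). PTGES, which makes prostaglandin E2, stood at 8.08, 7.93 and 8.73 against 6.71, 6.91 and 7.04, a fall of 1.36 (SE 0.23, adjusted p = 0.0216). PTGFR, the receptor of prostaglandin F2 alpha, stood at 7.85, 7.36 and 7.26 against 8.62, 8.46 and 9.01, a rise of 1.21 (SE 0.19, adjusted p = 0.0196). In Yorkshire sows the log2 differences of PTGS2, PTGES and PTGFR were 0.12, -0.49 and -0.16. The difference between the breeds did not pass the threshold for PTGS2 (interaction adjusted p = 0.961), PTGES (1.00) or PTGFR (0.919). The call of PTGFR ended without sow 6, 9 or 10 (adjusted p up to 0.0788) and that of PTGES also without sow 5 (up to 0.0968). PTGS2 was called without sow 3, 4, 11 or 12 and no other (up to 0.131).

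Of 19 measured steroid receptors and enzymes of steroid metabolism, 2 fell, HSD17B7 and HSD17B2, and 0 rose. The list had a median log2 difference of 0.02. HSD17B2, which converts oestradiol to oestrone, stood at 6.74, 7.14 and 6.97 against 5.06, 5.72 and 5.64, a fall of 1.48 (SE 0.28, adjusted p = 0.0359). Its other probe set was also called as lower. The oestrogen receptor ESR1 differed by -0.62 (adjusted p = 0.162), from 7.66, 7.28 and 7.74 to 6.84, 7.26 and 6.73, and the progesterone receptor PGR by -0.14 (adjusted p = 0.621). HSD17B2 is also the 1 called gene among 14 measured conceptus oestrogen-responsive genes of the luminal epithelium, whose median was 0.12. The growth factor FGF9 of that list stood at 5.56, 5.28 and 5.43 against 6.93, 6.17 and 6.82, a log2 difference of 1.22 (adjusted p = 0.0513) without overlap. The growth factor FGF7 stood at 7.76, 6.48 and 6.82 against 5.03, 5.67 and 5.50, a log2 difference of -1.62 (adjusted p = 0.142) without overlap. LPAR3, a lysophosphatidic acid receptor, differed by -0.84 (adjusted p = 0.525). The HSD17B2 call ended without sow 1, 5, 6, 7, 9, 10 or 11, with adjusted p up to 0.131. FGF9 was called without sow 2, 8 or 12, at adjusted p = 0.0220 without sow 8.

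Amino acid enzymes held both large falls and a rise. Of 29 measured genes of amino acid and polyamine metabolism, BCAT1 and ARG2 fell and ASS1 rose. In this list 9 (31.0%) were lower without overlap, against 15.2% of all genes, and 4 (13.8%) higher, against 11.1%. ASS1, which makes argininosuccinate on the route to arginine, stood at 6.32, 6.37 and 6.05 against 7.48, 6.81 and 7.16, a rise of 0.91 (SE 0.18, adjusted p = 0.0422). The median of the list was -0.18. The ASS1 call ended without any 1 sow except 4, 8 and 12 (adjusted p up to 0.146), and 5 members fell without sow 8, 4 without sow 7 and 1 without sow 5, 6, 9 or 10.

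Among 111 measured solute carriers, 3 rose and 2 fell, with a median of -0.02. The rises were those of SLC2A1, SLC39A2 and SLC46A3, and 1 of the falls was that of SLC25A1. The glucose transporter SLC2A3 stood at 9.06, 8.92 and 9.13 against 7.03, 6.44 and 7.92, a log2 difference of -1.91 (adjusted p = 0.0557) opposite to that of SLC2A1. The other called fall was that of the sugar transporter SLC50A1, at a log2 difference of -0.65 (adjusted p = 0.0489). It was chosen after its values were seen, and its call ended without any 1 sow except 8 and 12 (adjusted p up to 0.170). Of 40 genes of glycolysis and the citric acid cycle, PDK4 rose and IDH1, the cytosolic isocitrate dehydrogenase, fell by 0.56 (adjusted p = 0.0356). The list median was -0.12. The IDH1 call ended without sow 1, 3, 5, 6, 9 or 10 (adjusted p up to 0.132). The solute carrier rises numbered 8 without sow 8, and both rises and falls numbered 0 without sow 5, 6, 9 or 10.

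Mitochondrial and protein-handling genes were slightly lower in pregnant Landrace sows, with few of them called. Of 60 measured genes of oxidative phosphorylation, 1 fell and 0 rose, while 34 (56.7%) were lower in every pregnant sow than in every non-pregnant sow, against 15.2% of all genes. The median log2 difference was -0.30, against -0.02 over all genes. The called member was NDUFB2, a complex I subunit, at 9.97, 9.75 and 10.02 against 9.09, 9.04 and 9.33, a fall of 0.76 (adjusted p = 0.0372). Of 80 genes of the mitochondrial ribosome and protein import, MRPS36 fell, 34 (42.5%) were lower without overlap, and the median was -0.17. Of 40 proteasome genes, the catalytic subunit PSMB6 fell by 0.56 (adjusted p = 0.0497), 18 (45.0%) were lower without overlap, and the median was -0.23. Members of 1 list share a cell compartment and rise and fall together between animals, so these counts are not counts of independent genes.

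Of 62 heat shock proteins and chaperones 2 fell, and the median was -0.22. In this list 23 (37.1%) were lower without overlap, against 15.2% of all genes, and 4 (6.45%) higher, against 11.1%. HSPA13, a chaperone of the endoplasmic reticulum, fell by 0.83 (adjusted p = 0.0310). HSPA8 fell by 0.50 (adjusted p = 0.0451), but its 3 other probe sets differed the opposite way, 2 of them called, so its direction is uncertain. Of 29 genes of endoplasmic reticulum stress and secretion, 0 were called and 8 (27.6%) were lower without overlap. The chaperone HSPA5 stood at 11.26, 11.53 and 11.24 against 10.51, 10.56 and 10.96 (log2 difference -0.67, adjusted p = 0.0507), and the translocon subunit SEC61G differed by -0.56 (adjusted p = 0.0637). Of 55 translation factors and tRNA synthetases, the cap-binding factor EIF4E fell by 0.84 (adjusted p = 0.0398), from 6.96, 6.82 and 6.99 to 6.02, 6.18 and 6.05. Of the 55, 18 (32.7%) were lower and 4 (7.27%) higher without overlap. Of 62 cytosolic ribosomal proteins 0 were called, 3 (4.84%) were lower without overlap, and the median was -0.02. Without sow 12 the falls numbered 5 for oxidative phosphorylation, 4 for chaperones and 4 for translation factors. The calls of NDUFB2, PSMB6, HSPA13, HSPA8 and EIF4E ended without sow 5, 6, 9 or 10, and all but that of HSPA13 also without sow 1. Those of EIF4E, PSMB6 and HSPA8 ended without sow 7 too, those of PSMB6 and HSPA8 without sow 2 or 11, those of EIF4E and HSPA8 without sow 3, that of PSMB6 without sow 4 and that of NDUFB2 without sow 8, with adjusted p up to 0.168 for PSMB6. The first GAPDH 3′ minus 5′ signal was higher in these pregnant sows, while that of the second GAPDH pair overlapped between the groups. The part of these signals in the lists was not tested.

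**Figure D3:**
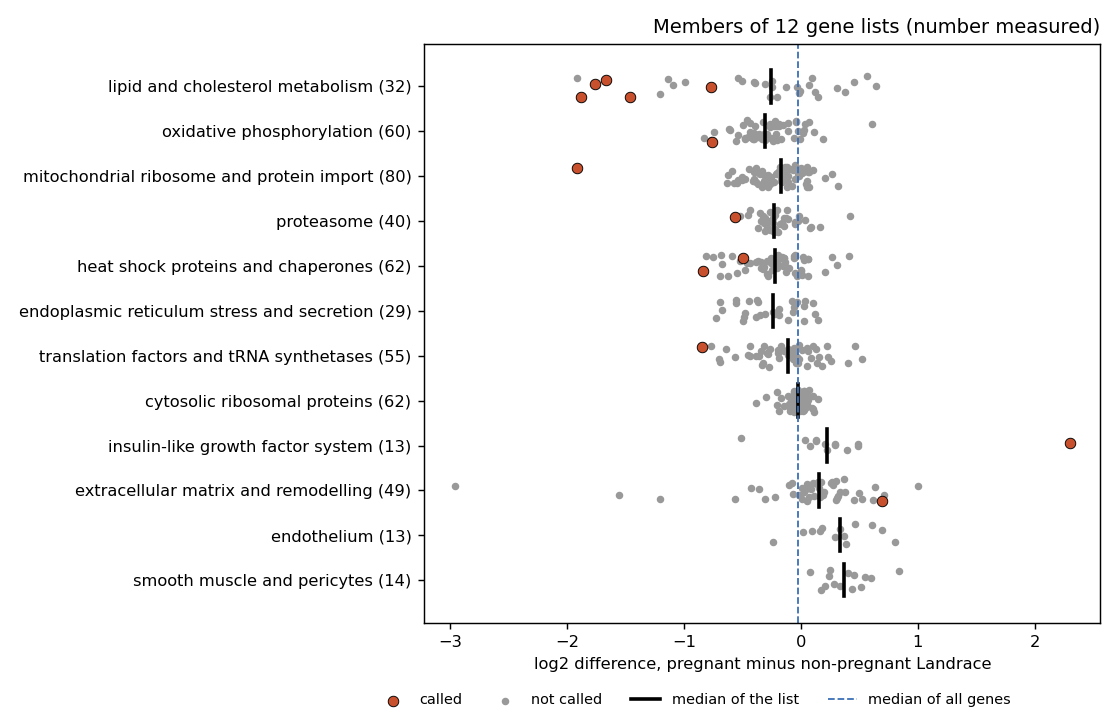
Log2 difference between pregnant and non-pregnant Landrace sows (horizontal axis) of every measured member of 12 gene lists, 1 point per gene, with called genes in large coloured points, the median of each list as a black bar and the median of all genes as a dashed line. The medians of oxidative phosphorylation (-0.30) and of lipid and cholesterol metabolism (-0.26) lie left of the line, cytosolic ribosomal proteins lie on it at -0.02, and smooth muscle and pericytes lie right of it at 0.37.

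Lists of adhesion and matrix genes held few calls. Of 34 adhesion molecules and integrins, EMB and ITGB5 rose and LGALS3 fell, with a median of -0.04. In this list 3 (8.82%) were higher without overlap, against 11.1% of all genes, and 5 (14.7%) lower, against 15.2%. ITGB5, an integrin beta subunit, stood at 8.19, 8.16 and 8.19 against 9.06, 9.05 and 8.86, a rise of 0.81 (SE 0.13, adjusted p = 0.0203). Its partner ITGAV was not on the list and, chosen after its values were seen, rose by 0.91 (adjusted p = 0.0213), from 8.46, 8.79 and 8.40 to 9.53, 9.40 and 9.47. LGALS3, a galectin that binds cell-surface sugars, stood at 11.94, 11.46 and 11.99 against 10.63, 11.06 and 10.75, a fall of 0.99 (SE 0.15, adjusted p = 0.0178). Of 49 genes of extracellular matrix and remodelling, the gelatinase MMP2 rose by 0.69 (adjusted p = 0.0178), from 10.05, 10.28 and 10.38 to 11.03, 10.92 and 10.83. In that list 9 (18.4%) were higher without overlap, against 11.1% of all genes, and the median was 0.15. The calls of ITGB5, ITGAV, LGALS3 and MMP2 ended without sow 5, 6, 9 or 10, with adjusted p up to 0.0927 for ITGAV, and 4 matrix genes rose without sow 12.

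Endothelial and smooth muscle markers lay somewhat higher in pregnant sows, with 0 called, while stromal markers were mixed. Of 12 stromal fibroblast markers, the intermediate filament VIM rose by 0.70 (adjusted p = 0.0372), from 11.71, 11.64 and 11.82 to 12.65, 12.46 and 12.17, and the median was 0.26. Of the 12, 2 (16.7%) were higher and 1 lower without overlap, and the members ranged from -0.84 to 1.45. Their list mean was 8.77, 9.05 and 8.91 in non-pregnant and 9.59, 9.16 and 8.84 in pregnant sows, which overlap, with sow 10 below sows 7 and 9. Of 13 endothelial markers 0 were called, 6 (46.2%) were higher without overlap, and the median was 0.34. The clotting carrier VWF stood at 7.90, 7.98 and 7.38 against 9.03, 8.28 and 8.35 (log2 difference 0.80, adjusted p = 0.162), and the junction protein CLDN5 differed by 0.46 (adjusted p = 0.193). Of 14 smooth muscle and pericyte markers 0 were called and 6 (42.9%) were higher without overlap, against 11.1% of all genes. Their median was 0.37, and the myosin light chain MYL9 differed by 0.40 (adjusted p = 0.208). The list mean of smooth muscle and pericytes was 8.27, 8.43 and 8.32 in non-pregnant and 8.81, 8.92 and 8.44 in pregnant sows. The muscle coat had been left out at dissection, and vessel walls hold smooth muscle too. The part of vessel walls or of remaining muscle coat in this list was not tested. Of 24 genes of angiogenesis and vascular permeability 0 were called, and the vascular growth factor VEGFA differed by 0.05 (adjusted p = 0.907) and its receptor KDR by 0.37 (adjusted p = 0.380). The VIM call held without sow 3, 4, 11 or 12 and no other (adjusted p up to 0.132).

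Growth factor, secretory and redox lists each held a small number of called genes. IGFBP2 was the 1 called gene of 13 in the insulin-like growth factor system. Of the 13, 6 (46.2%) were higher without overlap, against 11.1% of all genes, and 0 lower. IGF2 stood at 8.48, 8.59 and 8.62 against 9.03, 8.92 and 8.92 (log2 difference 0.40, adjusted p = 0.123), and all 12 of its other probe sets showed the same sign. IGF1 differed by 0.29 (adjusted p = 0.694). GPX3 was the 1 called gene of 23 histotroph and secreted carrier genes, whose median was 0.23. Of 38 redox and glutathione enzymes, GPX3 and the catalase CAT rose, the latter by 0.80 (adjusted p = 0.0336), from 10.19, 10.00 and 10.23 to 11.13, 10.88 and 10.79. Among 39 developmental transcription factors, KLF15, a regulator of amino acid and lipid use, rose by 0.71 (adjusted p = 0.0262), from 7.92, 7.65 and 7.76 to 8.41, 8.42 and 8.63. Of 110 Rab GTPases and vesicle trafficking genes, RAB15 and RAB9A rose, RAB9A by 0.74 (adjusted p = 0.0213), and the membrane-binding protein ANXA2 fell by 0.55 (adjusted p = 0.0150). FOS was the 1 called gene of 21 immediate early genes, whose median was -0.15. S100B was the 1 called gene of 6 nerve and Schwann cell markers. The calls of CAT, KLF15 and RAB9A ended without sow 5, 6, 9 or 10, those of CAT and KLF15 also without sow 7, and that of CAT without sow 1, with adjusted p up to 0.123. That of ANXA2 ended without sow 6, 9 or 10 (up to 0.0699).

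Of 64 measured chemokines, interleukins and their receptors, IL1A and MIF fell and 0 rose. MIF, a cytokine that holds back macrophage migration, stood at 10.91, 10.94 and 10.97 against 9.87, 10.22 and 10.08, a fall of 0.88 (adjusted p = 0.0213). IL1B, the cytokine closely related to IL1A, stood at 6.49, 9.74 and 6.36 against 6.66, 6.63 and 9.52, so that its difference was 0.07 (adjusted p = 0.984), and -0.89 without sow 10, while sows 7 and 10 lay more than 2 log2 units above the others. The MIF and IL1A calls ended without sow 5, 6, 9 or 10 (adjusted p up to 0.0911).

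Several of the largest differences did not pass the test. Of 24 genes that differed at least 4-fold, 18 were not called, 11 of them higher and 7 lower in pregnant sows. In 15 of the 18 sow 8 was the pregnant sow nearest to the non-pregnant sows, and in 15 sow 7 was the non-pregnant sow nearest to the pregnant ones. Among all 24 genes both counts were 19. A large difference that fails the test has a wide spread, so 1 sow near the other group is partly built into this choice. Of the 18, 8 were called without sow 7, 6 without sow 8, 6 without sow 12 and 0 without any other 1 sow. Leaving out a sow that widens the spread of a gene tends to lower its p by construction. S100A9, a calgranulin of phagocytes and inflamed epithelium, stood at 3.62, 9.35 and 3.54 in non-pregnant and at 12.06, 12.19 and 12.13 in pregnant sows. Its log2 difference was 6.62 (SE 1.52, adjusted p = 0.0643) and its adjusted p was 0.0119 without sow 7 and 0.0262 without Yorkshire sow 12. The pregnant Landrace sows were almost identical. The SD of S100A9 was 3.33 in non-pregnant Landrace and 2.86 in pregnant Yorkshire sows, and both enter the pooled spread. Its partners S100A8 and S100A12 differed by 0.75 (adjusted p = 0.775) and 0.52 (adjusted p = 0.764). The epithelial calcium channel TRPV6 stood at 7.88, 9.35 and 7.06 against 11.22, 9.91 and 11.07, a log2 difference of 2.64 (adjusted p = 0.0577, and 0.0208, 0.0368 and 0.0293 without sows 7, 8 and 12). KMO of the kynurenine pathway stood at 7.49, 8.82 and 6.13 against 9.85, 9.50 and 10.51, a difference of 2.47 (adjusted p = 0.0544, and 0.0118 without sow 7). SERPINB7, a protease inhibitor, stood at 4.90, 7.85 and 3.21 against 9.01, 7.74 and 8.19, and here sow 7 lay above sow 8 (adjusted p = 0.137, and 0.0119 without sow 7). The highest adjusted p with 1 sow left out was 0.212 for S100A9, 0.195 for TRPV6, 0.161 for KMO and 0.364 for SERPINB7.

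The neuropeptide NPY stood at 3.78, 3.56 and 3.48 against 8.98, 5.58 and 7.68, a log2 difference of 3.81 (adjusted p = 0.0707, and 0.0231 and 0.0209 without sows 8 and 12). STC1, a hormone of calcium and phosphate balance, stood at 9.54, 10.50 and 9.16 against 12.15, 11.80 and 11.81 (difference 2.18, adjusted p = 0.245, and 0.0401 without sow 12). The membrane mucin MUC4 stood at 6.10, 7.64 and 5.20 against 9.26, 7.57 and 8.54 (difference 2.15, adjusted p = 0.117, and 0.0392 without sow 7). SPP1, osteopontin, stood at 7.53, 12.23 and 7.30 against 7.96, 8.44 and 7.81, a difference of -0.95 (adjusted p = 0.737) that was 0.65 without sow 7. Of the 7 differences in the other direction, the vesicle GTPase RAB26 stood at 10.62, 6.52 and 10.95 against 6.20, 6.29 and 5.97, so that sow 7 lay near the pregnant sows (difference -3.21, adjusted p = 0.145, and 0.0113 without sow 7). The water and glycerol channel AQP3 stood at 11.23, 10.25 and 11.32 against 7.74, 9.38 and 6.92 (difference -2.92, adjusted p = 0.0728, and 0.0258 and 0.0294 without sows 8 and 12). CYP26A1, which breaks down retinoic acid, stood at 9.71, 7.65 and 9.78 against 5.05, 6.73 and 7.57 (difference -2.60, adjusted p = 0.0932, and 0.0366 without sow 7). ATP6V0D2, a proton pump subunit, stood at 8.85, 8.17 and 8.45 against 4.59, 8.04 and 5.95, with sow 8 beside the non-pregnant sows (difference -2.30, adjusted p = 0.109, and 0.00407 without sow 8). RAB26 was chosen after its values were seen. The highest adjusted p with 1 sow left out was 0.225 for NPY, 0.483 for STC1, 0.346 for MUC4 and 0.384 for RAB26. It was 0.216 for AQP3 and 0.277 for both CYP26A1 and ATP6V0D2.

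**Figure D4:**
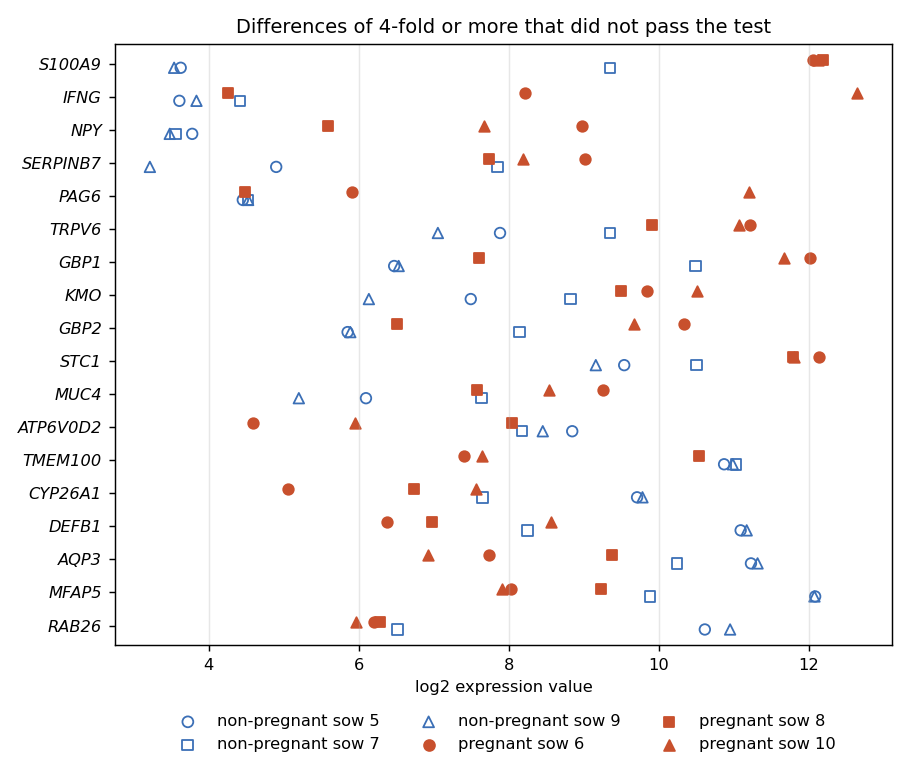
Log2 expression value (horizontal axis) of the 18 genes that differed at least 4-fold between the group means without passing the test, 1 point per sow, with open symbols for non-pregnant and filled symbols for pregnant sows. Sow 7 (open square) lies at 9.35 for S100A9 and 6.52 for RAB26, near the pregnant sows, and sow 8 (filled square) lies at 10.53 for TMEM100 and 4.26 for IFNG, near the non-pregnant sows.

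Some transcripts known from the conceptus were high in sow 10 and in part in sow 6. Of 18 measured genes of the conceptus trophoblast and extraembryonic tissue, 0 were called. In this list 5 (27.8%) were higher without overlap, against 11.1% of all genes. Of the 18, 12 had a log2 difference above 0, and the lowest was -0.35. IFNG, which porcine trophoblast secretes at this stage, stood at 3.61, 4.41 and 3.83 in non-pregnant sows and at 8.21, 4.26 and 12.65 in sows 6, 8 and 10. Its log2 difference was 4.42 (SE 1.46, adjusted p = 0.170), and the value of sow 8 lay within the non-pregnant range. Other members, named after their values were seen, followed sow 10. The trophoblast aspartic proteinase-like glycoprotein PAG6 stood at 4.45, 4.52 and 4.52 against 5.92, 4.48 and 11.20, and 1 of its 2 other probe sets had the same sign. The trophoblast transcription factor HAND1 stood at 5.67, 5.98 and 5.56 against 5.77, 5.82 and 8.26, and the side-chain cleavage enzyme CYP11A1 at 3.63, 3.77 and 3.58 against 3.79, 4.02 and 5.95. The mean of the 18 genes was 5.11, 5.23 and 5.02 in non-pregnant sows and 5.47, 5.17 and 6.50 in pregnant sows. The uterine horns had been flushed before sampling. The part of retained conceptus tissue in the values of sow 10 was not tested.

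Genes that respond to interferon gamma followed the sows rather than the groups. Of 18 measured members 0 were called, and the median was 0.45, which was 0.86 without sow 7. In this list 3 (16.7%) were higher without overlap, against 11.1% of all genes, and 1 (5.56%) lower, against 15.2%. The list mean was 6.96, 8.73 and 6.93 in non-pregnant and 8.84, 7.40 and 8.50 in pregnant sows. IRF1, a transcription factor induced by interferons, stood at 7.23, 9.67 and 7.27 against 10.38, 7.54 and 10.17, high in sows 6, 10 and 7 and low in sow 8 (difference 1.30, adjusted p = 0.506). The guanylate-binding protein GBP1, chosen after its values were seen, had the same order, at 6.47, 10.49 and 6.53 against 12.02, 7.60 and 11.67. IRF2 stood at 8.58, 8.85 and 8.51 against 9.11, 9.15 and 9.13, without overlap (difference 0.48, adjusted p = 0.0821). Of 20 type I interferon-stimulated genes 0 were called. STAT2 differed by 0.95 (adjusted p = 0.171) and USP18 by -1.02 (adjusted p = 0.338), and the list mean was 7.69, 9.03 and 8.06 against 8.45, 7.52 and 8.11. Of 26 genes of antigen processing and MHC 0 were called, with a list mean of 8.85, 10.16 and 8.95 against 9.86, 8.95 and 9.66. For the type I and antigen lists the highest of the 6 means was that of sow 7, whose macrophage and T cell markers were also highest.

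The other pathway lists held 0 called genes. For each, the 2 members with the smallest p are given as log2 differences. Protease inhibitors (31 measured) had SERPINB7 at 2.99 and the collagen chaperone SERPINH1 at -0.46. Calgranulins and antimicrobial defence (16) had S100A9 and S100A11, the latter at -0.86 with adjusted p = 0.0557, and 0.00910 and 0.0490 without sows 8 and 12. Mucins and glycan synthesis (25) had the glycosyltransferase B3GNT5 at -0.73 and the mucin MUC1 at 0.41 (adjusted p = 0.0785 and 0.0860), both without overlap. Epithelial junctions and keratins (36) had the claudins CLDN11 at 1.56 and CLDN7 at -0.50, both without overlap (adjusted p = 0.122 and 0.173). Fibroblast and epidermal growth factors and receptors (19) had FGF9 and FGF12, the latter at -1.72 (adjusted p = 0.0560, and 0.0447 and 0.00951 without sows 3 and 8). Complement and coagulation (32) had VWF and the clotting factor F5, at 1.08 (adjusted p = 0.179). Calcium and ion transport (25) had TRPV6 and AQP3, with the intestinal calcium-binding protein S100G at 0.19 (adjusted p = 0.953).

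Cytochrome P450 and conjugation enzymes (47 measured) had CYP26A1 and the bile acid enzyme CYP7A1, at 1.26 (adjusted p = 0.0901, and 0.0444 without sow 8). Cell cycle and DNA replication (33) had the inhibitor CDKN1B at 0.37 and CKS1B at -0.37 (adjusted p = 0.203 and 0.248). WNT and TGF-beta signalling (36) had the receptors TGFBR3 at 1.02 and FZD4 at 0.61, both without overlap (adjusted p = 0.0932 and 0.0844). In that list 9 (25%) were higher without overlap, against 11.1% of all genes. Lysosome and proton pump (45) had ATP6V0D2 and ATP6V1A, the latter at -0.55 (adjusted p = 0.0844). A second probe set of ATP6V1A, with a lower mean, was called as lower, at -0.68 (adjusted p = 0.0213). Peptide hormones and receptors (35) had the adiponectin receptor ADIPOR2 at 0.88 (adjusted p = 0.0544) and somatostatin, SST, at -1.73 (adjusted p = 0.0679), both without overlap. SST stood at 9.03, 9.20 and 9.83 against 6.67, 7.89 and 8.30. The medians of these 12 lists lay between -0.06 and 0.11, and that of angiogenesis and vascular permeability was 0.15.

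Marker lists of other cell types also held 0 called genes, apart from the stromal and nerve lists given above. For luminal and glandular epithelium the median log2 difference was -0.17 and for ciliated epithelium -0.05. For macrophages and monocytes it was -0.09, and 0.44 without sow 7. The scavenger receptor CD163 stood at 7.41, 11.11 and 7.38 against 6.69, 7.42 and 6.91 (adjusted p = 0.340). For T cells the median was 0.01 (0.27 without sow 7), for natural killer and cytotoxic cells 0.18, for B cells and plasma cells -0.20 and for dendritic cells -0.10. For neutrophils it was 0.10, and their list mean was 5.03, 5.99 and 4.95 in non-pregnant and 5.95 to 6.40 in pregnant sows, a list that holds S100A9. Mast cells were at 0.04, eosinophils at -0.23, erythroid cells at 0.14, and platelets and megakaryocytes at 0.11. Lymphatic endothelium was at 0.03, adipocytes at 0.11 and mesothelium at 0.05. The mast cell receptor KIT stood at 6.95, 7.43 and 7.12 against 8.18, 7.79 and 7.76 (difference 0.74, adjusted p = 0.0869). It was the highest of 3 measured mast cell markers, and the lowest differed by -0.35.

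The same comparison in 3 pregnant and 3 non-pregnant Yorkshire sows used other animals. It gave 0 called probe sets (0%), with a smallest adjusted p of 0.0557 and 3667 probe sets at an unadjusted p under 0.05, against 3726 in Landrace. With an intensity trend and a robust prior in limma the Yorkshire count was also 0. Without pregnant sow 12, it was 1381. The breed by pregnancy interaction, which tests whether the effect differs between the breeds, also gave 0 calls (0%), with a smallest adjusted p of 0.322 and 963 probe sets at an unadjusted p under 0.05. It gave 0 calls too with the intensity trend and robust prior, 1 without sow 5 and 18 without sow 12. So no gene can be said to respond in Landrace alone.

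Of the 55 genes that rose in Landrace, 53 had the same sign in Yorkshire, and of the 56 that fell, 51 did. Over all genes 70.3% had the same sign. Across the 6765 genes, which are not independent replicates, the log2 differences of the breeds had a Pearson correlation of 0.640. Of the 55 rises, 43 were also higher without overlap in Yorkshire, against 10.6% of all genes, and of the 56 falls 34 were lower without overlap, against 13.7%. The Yorkshire arrays enter the spread behind the Landrace calls, which favours genes with a narrow Yorkshire spread. The shares without overlap are therefore not an independent test. The median log2 difference of the rises was 0.84 in Landrace and 0.53 in Yorkshire, and that of the falls -0.91 and -0.47. These genes were chosen on the Landrace values, and such a choice tends to make the Landrace differences the larger ones. The part of this choice, of single Yorkshire sows or of breed in the smaller Yorkshire medians was not tested. EMB, GPX3, IGFBP2, SLC2A1 and SLC39A2 had Yorkshire differences of 3.20, 2.48, 2.04, 1.94 and 2.28, close to those in Landrace. SQLE, MSMO1 and HMGCS1 had Yorkshire differences of -0.57, -0.76 and -1.16. FOS had a Yorkshire difference of -0.04, against -2.90 in Landrace (interaction -2.86, adjusted p = 0.919). Of the 7 called genes with opposite sign in Yorkshire, HSD17B2 had the largest Yorkshire difference, at 1.10.

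The 5 genes with the smallest interaction p were HSD17B2, MCUB, PTGFR, LOC100739163 and DHRS7, and none passed. The effect of pregnancy on HSD17B2 was -1.48 in Landrace and 1.10 in Yorkshire (interaction -2.57, adjusted p = 0.444). MCUB, a subunit of the mitochondrial calcium uniporter that lowers its activity, had -0.30 and 0.53 (interaction -0.83, adjusted p = 0.919). The uncharacterised gene LOC100739163 had -0.91 and 0.70 (interaction adjusted p = 0.919). DHRS7, a short-chain dehydrogenase, fell by 1.16 in Landrace (adjusted p = 0.0121), from 8.69, 8.11 and 8.16 to 7.25, 7.14 and 7.08, and differed by -0.10 in Yorkshire (interaction adjusted p = 0.919). Its Landrace call ended without sow 10 (adjusted p = 0.0517). FGF7 and LPAR3 also had opposite signs, with Yorkshire differences of 1.33 and 1.55 (interaction adjusted p = 0.961 and 1.00).

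**Figure D5:**
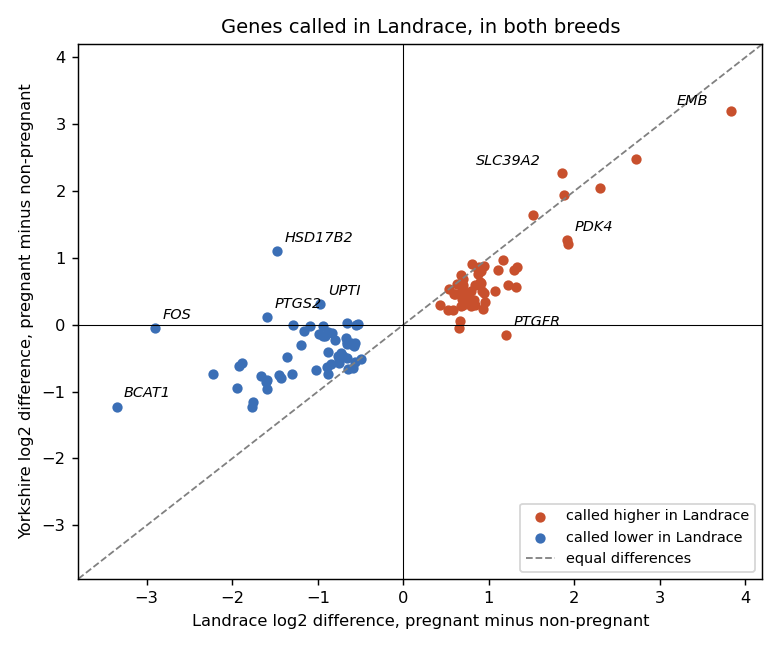
Log2 difference between pregnant and non-pregnant sows in Landrace (horizontal axis) and in Yorkshire (vertical axis) for the 111 genes called in Landrace, 1 point per gene, with equal differences on the dashed line. Most points lie in the quadrants of equal sign and nearer to 0 in Yorkshire, while HSD17B2, at -1.48 and 1.10, lies in a quadrant of opposite sign.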

How the data were processed

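Per the submitters' processing notes, RMA and the affy and limma packages were used by the authors, and each deposited value is the log2 expression of 1 probe set. RMA makes the distributions of the arrays alike, so a difference is measured relative to the rest of the array, and low values hold mostly background. The number of arrays limits the precision. Symbols came from a platform annotation (10069 probe sets with 1 symbol, 198 with several, 13732 with none). The deposited log2 values were fitted as 4 groups over 12 arrays (8 residual degrees of freedom) by lmFit and eBayes of limma 3.58.1 under R 4.3.3, with two-sided tests and Benjamini-Hochberg adjustment over 23999 probe sets. Data were simulated with independent normal noise, no change in Yorkshire and no array that stood apart. In these simulated data the procedure recovered 25.4%, 83.6% and 90.9% of probe sets changed by 0.5, 1 and 2 log2 units in Landrace. Of its calls there, 8.9% were false. The real arrays differ from these settings, so the rates may not hold for them.

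The 39 pathway lists and 20 cell type lists, and the rule for named genes, were chosen with earlier results of these data known. Named genes were the 12 largest called rises and falls, up to 4 called members of each list (2 members with the smallest p where 0 were called), the 5 smallest interaction p-values and 29 measured genes of a fixed set of 30. No genome build is used, and no coordinates or sequences are printed. Alternatives were cyclic loess, median centring, a filter on dim probe sets, array weights, a robust prior with an intensity trend, the 6 Landrace arrays alone, other thresholds, the mean of a gene's probe sets, and leaving out each sow.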

Additional observations from a re-analysis of the deposited data

How the results depend on the processing

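Limits lie mainly in single sows. Against 132 higher and 115 lower probe sets, leaving out 1 sow gave between 5 and 318 higher and between 8 and 246 lower, between 0 and 1381 calls in Yorkshire and between 0 and 18 for the interaction. The filter on dim probe sets gave 207 higher, 182 lower and 59 in Yorkshire, and array weights gave 601, 575 and 3142, with 2 for the interaction. The 6 Landrace arrays alone gave 10 higher and 9 lower, of which 15 were among the 247, and its called genes among the 111 were PDK4, GAB1, EMB, BCAT1, SQLE, HSD17B7 and ACAT2. Leaving out sows 7 and 12 together, chosen after seeing the data, gave 291 higher, 326 lower, 1873 in Yorkshire and 29 for the interaction. Adjusted p under 0.01 gave 3 and 4, under 0.1 gave 431 and 361, and a log2 difference of at least 1 gave 45 and 49. A stricter threshold lowers the counts by construction, and for the other settings the cause was not tested. Cyclic loess gave 142 and 157, median centring 115 and 149, and the intensity trend with a robust prior 120 and 107. Of 135 named genes, 14 changed sign under at least 1 alternative. HSPA8, at 0.51 with the mean of all probe sets of the gene, was the 1 called gene among them. The other 13, SPP1 and IL1B among them, were not called. Of the 33 changes of sign, 25 came with sows left out. No paired analysis was possible because the replicate numbers are not shared between the groups.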

Other observations

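Some called genes outside the lists are given here with their known roles, chosen after their values were seen. Among the rises, PIK3IP1, an inhibitor of phosphoinositide 3-kinase, stood at 7.82, 7.33 and 7.76 in non-pregnant sows 5, 7 and 9 and at 8.78, 8.65 and 8.78 in pregnant sows 6, 8 and 10, a rise of 1.11 (SE 0.14, adjusted p = 0.0121). GABARAPL1, which coats autophagosomes, rose by 0.94 (adjusted p = 0.0178), from 9.14, 8.85 and 8.85 to 9.93, 9.81 and 9.93. The autophagy receptor RETREG1 rose by 0.69, the autophagy protein WDR45 by 0.61 and the mitochondrial quality-control kinase PINK1 by 0.68. SESN1, which restrains growth signalling under stress, rose by 0.75, the circadian repressor CRY2 by 0.96, the glucocorticoid-induced TSC22D3 by 0.84 and the coactivator PPARGC1A by 0.93. None of these 9 overlapped between the groups, which was so for all 111 called genes and so sets these 9 apart from none of them. The PIK3IP1 call ended without sow 10 (adjusted p = 0.0507), and those of the other 8 without sow 9 or sow 10. For CRY2 no other sow did so, and the other 7 calls ended without further sows too, with adjusted p up to 0.161 for TSC22D3.

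Among the falls, TSPO, a cholesterol-binding protein of the outer mitochondrial membrane, stood at 9.84, 10.07 and 10.32 against 8.79, 9.21 and 8.63, a fall of 1.20 (SE 0.17, adjusted p = 0.0152). The nucleolar proteins NHP2 and NOP16 fell by 1.02 and 0.71, the splicing protein SNRPD1 by 0.75, the DNA repair enzyme APEX1 by 0.90 and the chromatin reader YEATS4 by 0.88. The other probe set of NHP2 had the opposite sign, without a call. UPTI, a protease inhibitor of the uterus, stood at 12.40, 12.01 and 12.69 against 11.28, 11.21 and 11.70, a fall of 0.97 (adjusted p = 0.0489), while in Yorkshire its difference was 0.32. Its other probe set also had the opposite sign, without a call. The calls of TSPO and NHP2 ended without sow 6, 9 or 10 and those of the other 5 also without sow 5, and, apart from YEATS4, without further sows, with adjusted p up to 0.164 for UPTI. Of the 247 called probe sets, 108 had no single gene symbol and were not named.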
